A study of Homo sapiens with 24 samples.

Results

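The peak lists of 7 eCLIP libraries from 293T cells, an established human kidney line, shared 1434 short stretches of RNA on which every library had a peak. A stretch was taken where at least 1 nt of a strand lay under a peak of any height in all 7 lists, and touching stretches were merged. The mitochondrial chromosome and 4 windows that hold the clusters of replication-dependent histone genes were left out, which removed 88 further stretches (62 mitochondrial and 26 in the histone windows). The regions covered 40657 nt, or 0.606% of the 6712272 nt under any peak outside those places, and they are set against 161095 stretches under at least 1 peak in the whole series. The regions were chosen by the presence of a peak in these 7 lists, so their number, width and place are a description. The height of the peaks over input was not part of the choice.

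In eCLIP, ultraviolet light links proteins to the RNA they touch, and an antibody pulls down one protein with its RNA. The recovered fragments are sequenced beside a size-matched input that was not enriched by the antibody. RBFOX2 controls alternative splicing through GCAUG elements in pre-mRNA. SLBP binds the stem-loop at the end of replication-dependent histone mRNAs, and IgG of no set target serves as the control antibody. Abundant RNAs give fragments in any library, so a place may carry a peak in every list and still hold less RNA after precipitation than in the input.

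The groups were RBFOX2 (n = 2), SLBP with 40 U of RNase I (n = 2, replicates 1 and 2), SLBP with 5 U of RNase I (n = 2, replicates 3 and 4) and IgG (n = 1). RBFOX2 and IgG libraries also had 40 U, the labels give no genetic change or treatment, all cells were crosslinked on the plate, and each library had an input of its own. The labels do not say whether replicates were separate cultures, so the p-values cover library-to-library spread that could be technical only. The lists held 74902 and 97594 peaks for RBFOX2, 23034 and 18349 for SLBP at 40 U, 16974 and 10122 for SLBP at 5 U, and 28361 for IgG. Read counts are not part of the lists, so the depth behind a fold is unknown. The IgG group has no replicate.

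The regions were narrow and scattered over 23 chromosomes. Their median width was 26 nt (quartiles 14 and 38 nt, range 1 to 166 nt), 222 were under 10 nt and 15 were a single base. Plus and minus strands held 704 and 730 of them. Regions of one strand no more than 1 kb apart fell into 879 loci, of which 608 (69.2%) held 1 region, while 29 loci with at least 5 regions held 226 regions. The 12 loci with the most covered bases held 4741 nt, 11.7% of the total. Chromosome 1 had 140 regions, chromosome 11 had 134, chromosome 17 had 123, chromosome 19 had 112 and the X chromosome had 108. Relative to all bases under a peak on the chromosome, the X chromosome stood highest with 1.60%, followed by chromosome 11 with 1.06%, and chromosome 21 stood lowest with 0.272%. Both leaders hold long nuclear RNAs described further on.

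Log2 fold over input at the regions was below 0 in most places for RBFOX2, and its median was near 0 for SLBP and IgG. Single regions spread further. On average over the 4 SLBP libraries, 20.1% of regions were at −1 or less and 14.1% at 1 or more. In IgG these shares were 15.1% and 10.3%. The median over the 1434 regions was −1.01 and −1.62 in RBFOX2 replicates 1 and 2, against 0.24 and 0.11 in SLBP replicates 1 and 2 at 40 U, −0.39 and −0.00 in SLBP replicates 3 and 4 at 5 U, and 0.07 in IgG. Group means of these medians were −1.31 ± 0.43 for RBFOX2, 0.18 ± 0.09 for SLBP at 40 U and −0.19 ± 0.27 for SLBP at 5 U (SD, n = 2 each). Both RBFOX2 medians lay below all 5 others, and the SLBP and IgG medians interleaved. The difference of RBFOX2 from the 4 SLBP libraries was −1.30 on the log2 scale. The exact two-sided permutation p was 0.133 as 2 times the smaller tail and 0.0667 by absolute difference (1 of 15 splits), in each form the smallest that 2 against 4 libraries can give. The 2 SLBP libraries at 5 U differed from the 2 at 40 U by −0.37 (exact permutation p = 0.333, the smallest for 2 against 2).

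**Figure D1:**
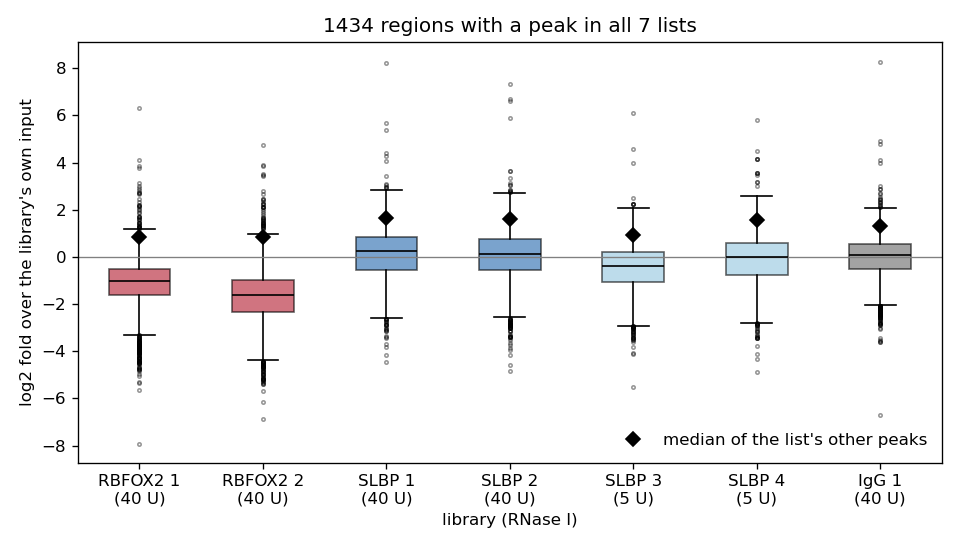
Log2 fold over the library's own input (vertical axis) at the 1434 regions, 1 box per library (line, median; box, quartiles; whiskers, 1.5 times the interquartile range; dots, regions beyond); diamonds give the median of the other peaks of the same list. The 2 RBFOX2 boxes lie below 0 with medians of −1.01 and −1.62, and in all 7 libraries the box median lies below the diamond.

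Few regions were above input with the RBFOX2 antibody. RBFOX2 replicates had a positive log2 fold at 12.1% and 8.65% of regions, SLBP at 40 U at 58.9% and 54.8%, SLBP at 5 U at 33.0% and 48.4%, and IgG at 53.3%. A total of 1235 regions (86.1%) lay below input in both RBFOX2 libraries, and 318 lay below input in all 7. Only 58 regions in 42 loci were above input in all 7. At 944 regions (65.8%) both RBFOX2 folds lay below those of the other 5 libraries, and at 25 they lay above all 5. Over all 1522 stretches shared by the 7 lists, mitochondrial and histone ones included, these patterns held for 66.5% and 1.64%. The 1434 regions make up most of those 1522, so the 2 sets of shares are not independent.

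The other peaks of each list lay higher. Their median log2 fold was 0.85 and 0.86 in RBFOX2, 1.66 and 1.63 in SLBP at 40 U, 0.92 and 1.58 in SLBP at 5 U, and 1.31 in IgG. From 2 lists upward, the RBFOX2 fold fell with each further list. RBFOX2 replicate 1 had a median per base of 0.69 where 1 list had a peak, 1.94 where 2 did, 0.41 for 3, −0.27 for 4, −0.59 for 5, −0.79 for 6 and −0.95 for 7. RBFOX2 replicate 2 followed the same order, with 0.86, 1.95, 0.36, −0.55, −1.01, −1.34 and −1.57. Bases in 2 lists were the highest of both series. SLBP replicate 1 had a median of 1.83 at bases in its list alone and 0.34 at bases in all 7, and IgG had 1.63 and 0.15. Just outside the rule stood 3469 stretches (37023 nt) in exactly 6 lists. The list missing most often there was SLBP replicate 4, the shortest list, for 28.1% of those bases.

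**Figure D2:**
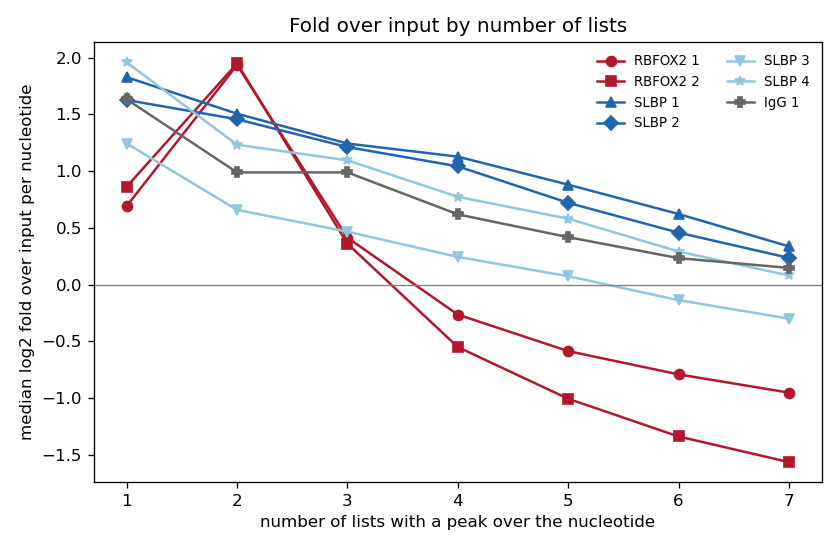
Median log2 fold over input per base (vertical axis) by the number of lists that have a peak on the base (horizontal axis), 1 line per library. RBFOX2 lines have their top at 2 lists (1.94 and 1.95) and end at −0.95 and −1.57 at 7 lists, while the SLBP and IgG lines end between −0.30 and 0.34.

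Regions with a strong fold were rare. A region was called enriched in a library when the highest peak on it had a log2 fold of at least 3 and the authors' −log10 p was at least 5. This held for 8 and 7 regions in RBFOX2 (0.558% and 0.488%), where 7.95% and 7.66% of all peaks of these lists passed. It held for 6 and 6 regions in SLBP at 40 U (0.418% each, against 1.23% and 1.27% of all peaks), 3 and 5 in SLBP at 5 U (0.209% and 0.349%, against 1.7% and 2.33%) and 6 in IgG (0.418%, against 0.18%). In the RBFOX2 and SLBP lists the share at the regions was lower than in the whole list, and in the IgG list it was higher. The whole lists include the mitochondrial chromosome and the histone windows, so the 2 sets are unlike. Outside those places and off the regions, 0.445%, 0.272%, 0.113% and 0.290% of peaks in SLBP replicates 1 to 4 had a −log10 p of at least 5. The share past both limits can be no higher than that. It was thus below the share at the regions in SLBP replicates 2, 3 and 4. The units are unlike, since one share counts peaks and the other counts regions by their highest peak. Adjacent regions can also share a peak, and few regions passed. The rule used these lists, so the shares carry no test.

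Across the 1434 regions, libraries of one antibody were alike and different antibodies were alike too. Pearson's r between the 2 RBFOX2 libraries was 0.90 (Spearman's rho 0.82), between SLBP replicates 1 and 2 it was 0.79 (0.73), and between RBFOX2 and IgG it was 0.78 and 0.68. SLBP replicates 3 and 4 had r = 0.72, and SLBP pairs of unlike RNase amounts ran from 0.64 (replicates 1 and 3) to 0.77 (replicates 1 and 4). RBFOX2 replicate 1 with SLBP replicate 3 also had 0.72, so SLBP pairs were not all above pairs of different antibodies. The lowest of the 21 pairs was RBFOX2 replicate 2 with SLBP replicate 1, at 0.57. These values run across regions, which share genes and often peaks, and are not tests.

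No gene names come with the lists. Names were given to hg19 windows of 96 listed and 13 later genes, recalled from general knowledge of where these genes lie, and kept where chromosome, length and, where listed, strand fitted a gene table of another build. They were not checked against an annotation of hg19. A total of 83 genes held 445 regions (31.0%) and 13665 nt (33.6%), so most regions are given by place alone. In the 61 genes where place along the gene was read, the first of 5 equal parts from the 5′ end held 36.6% of the bases in all 7 lists and 28.3% of the bases in 1 to 6 lists. Of 56 protein-coding genes, 40 had a region within 500 nt of the start of the span. These starts are recalled coordinates, and no such count is given for peaks in fewer lists.

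The long nuclear RNAs held the 3 loci with the most bases. XIST, the RNA that coats the inactive X chromosome, held 52 regions (1927 nt), NEAT1, the scaffold of paraspeckles, held 30 (1033 nt), and MALAT1, an abundant RNA of nuclear speckles, held 19 (999 nt). NEAT1 medians were above input with every antibody. Its regions had a median log2 fold of 0.71 and 1.01 in RBFOX2, 0.81 and 0.76 in SLBP at 40 U, 0.73 and 0.94 in SLBP at 5 U, and 0.52 in IgG, so the groups overlapped. MALAT1 had −0.02 and −0.42 in RBFOX2, 0.18 and 0.27 in SLBP at 40 U, 0.68 and 0.64 in SLBP at 5 U, and 0.41 in IgG. XIST had −0.59 and −1.07 in RBFOX2, −0.13 and −0.09 in SLBP at 40 U, 0.18 and 0.16 in SLBP at 5 U, and 0.09 in IgG. RBFOX2 was lowest on MALAT1 and XIST and not on NEAT1.

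Within each RNA the fold changed along the transcript. The 5′ locus of NEAT1 (chr11:65190289-65192366, plus strand, 9 regions over 2078 nt) had 2.16 and 2.37 in RBFOX2, 1.57 and 1.49 in SLBP at 40 U, 1.03 and 1.28 in SLBP at 5 U, and 1.31 in IgG. All 7 values exceeded 1, and both RBFOX2 values were the highest. A further region near the 3′ end, chr11:65212659-65212714, had 1.92 and 2.32 in RBFOX2, 1.14 and 1.22 in SLBP at 40 U, 0.61 and 0.92 in SLBP at 5 U, and 0.71 in IgG. Between them the RBFOX2 mean reached down to −0.71. On XIST the locus nearest the 5′ end (chrX:73070375-73072538, minus strand, 11 regions) had 0.21 and 0.01 in RBFOX2, 0.35 and 0.36 in SLBP at 40 U, 0.45 and 0.54 in SLBP at 5 U, and 0.46 in IgG. The next locus (chrX:73062915-73068296, 21 regions) had −0.70 and −1.21 in RBFOX2, −0.27 and 0.04 in SLBP at 40 U, −0.00 and 0.08 in SLBP at 5 U, and 0.05 in IgG. A locus further 3′ (chrX:73044582-73047341, 12 regions) had −0.72 and −1.18 in RBFOX2, while SLBP and IgG stayed between −0.26 and 0.32. RBFOX2 was the lowest antibody on all 3 of these XIST loci, by least on the first.

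**Figure D3:**
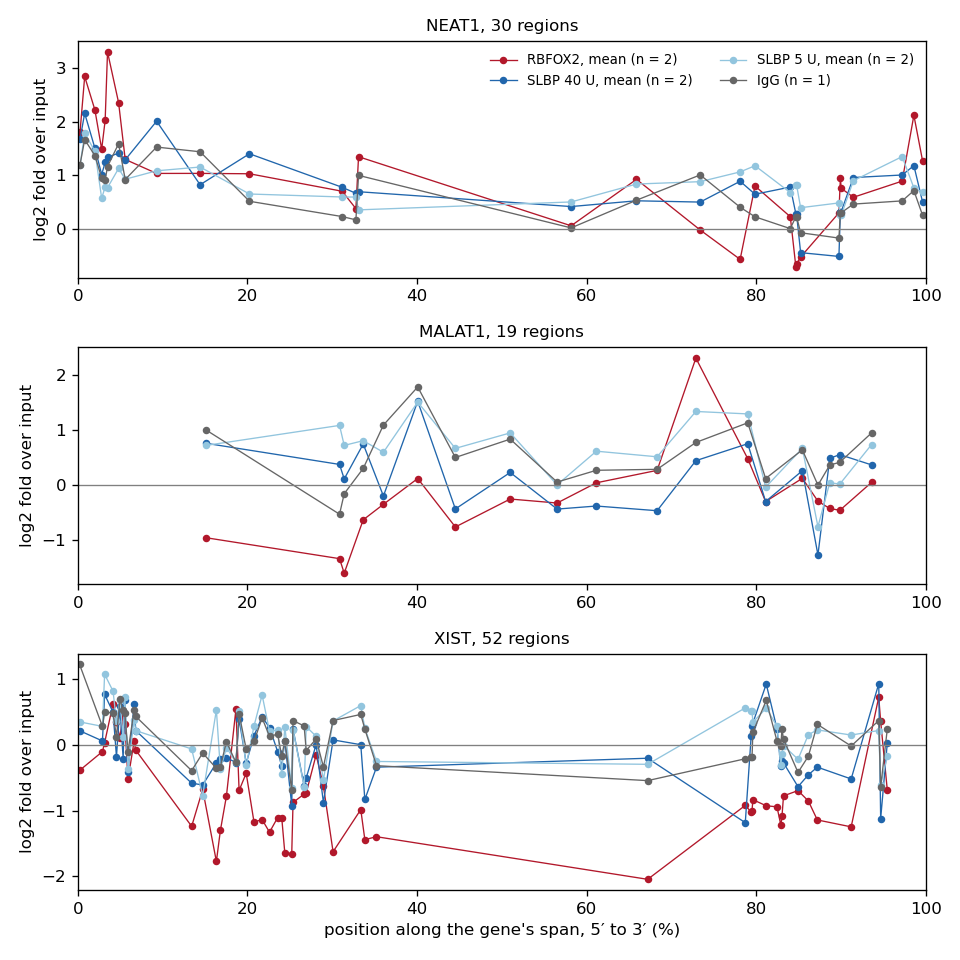
Log2 fold over input (vertical axis) of each region of NEAT1, MALAT1 and XIST by its place along the gene's span from 5′ to 3′ in percent (horizontal axis), with lines for the RBFOX2 mean, the SLBP means at 40 U and 5 U (n = 2 each) and the single IgG library. RBFOX2 reaches 3.30 near the 5′ end of NEAT1, has 1 peak of 2.31 on MALAT1 and lies below the other lines on most of XIST.

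MALAT1 (chr11:65267918-65273410, plus strand, 18 regions in its main locus) held 1 region where RBFOX2 was high. At chr11:65271560-65271598 the log2 fold was 2.22 and 2.40 in RBFOX2, −0.25 and 1.13 in SLBP at 40 U, 1.48 and 1.19 in SLBP at 5 U, and 0.77 in IgG. The widest MALAT1 region, chr11:65268091-65268237 (147 nt), had −0.26 and −1.01 in RBFOX2, 0.83 and 0.65 in SLBP at 40 U, 0.74 and 0.86 in SLBP at 5 U, and 0.30 in IgG. The 2 regions lie in one RNA, and RBFOX2 was the highest antibody on the first and the lowest on the second.

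Structured small RNAs were the group furthest below input in RBFOX2. These RNAs fold tightly and work inside ribonucleoproteins, and 9 of 10 listed genes held 22 regions. The median over genes of the RBFOX2 mean was −3.34, against 0.00 for SLBP at 40 U, −0.77 for SLBP at 5 U and −1.65 for IgG. RPPH1, the RNA of ribonuclease P, held 9 regions between chr14:20811340 and 20811569 on the minus strand. Their median was −3.75 and −4.06 in RBFOX2, 0.74 and −0.74 in SLBP at 40 U, −1.35 and −0.71 in SLBP at 5 U, and −1.72 in IgG. Several of these 9 regions lie under the same peaks, so they are not 9 measurements. RBFOX2 lay below the other libraries throughout, and IgG was the next lowest.

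RNU11, a small nuclear RNA of the minor spliceosome, gave −3.17 and −3.51 in RBFOX2, 0.94 and 0.30 in SLBP at 40 U, −0.64 and −0.35 in SLBP at 5 U, and −2.05 in IgG. RMRP, the RNA of ribonuclease MRP, gave −2.27 and −2.99 in RBFOX2, 0.68 and 0.12 in SLBP at 40 U, −0.85 and −0.24 in SLBP at 5 U, and −0.67 in IgG. TERC, the telomerase RNA, gave −2.49 and −2.21 in RBFOX2, 0.94 and 0.33 in SLBP at 40 U, 0.32 and 0.88 in SLBP at 5 U, and −0.72 in IgG. On these 3 RNAs SLBP at 40 U was above input and RBFOX2 was below it by more than 2 log2 units. RN7SL1, the RNA of the signal recognition particle, was far below input with every antibody. Its region had −7.91 and −6.88 in RBFOX2, −2.57 and −4.58 in SLBP at 40 U, −3.63 and −3.04 in SLBP at 5 U, and −6.71 in IgG; near-identical copies of this gene exist, which makes its value uncertain. RNU5A-1, a spliceosomal RNA, had −4.39 and −3.93 in RBFOX2, −3.80 and −2.61 in SLBP at 40 U, −2.10 and −1.88 in SLBP at 5 U, and −3.61 in IgG. SCARNA2, a guide RNA of Cajal bodies, was above input with SLBP and IgG and lowest in RBFOX2, with 0.13 and −0.77 in RBFOX2, 2.37 and 2.57 in SLBP at 40 U, 1.67 and 1.39 in SLBP at 5 U, and 1.63 in IgG. Of this group 20 of 22 regions passed the test as lower in RBFOX2 than in SLBP at 40 U, and the test is described further on. Of all tested stretches 59.5% passed in that direction. The RPPH1 regions, several of them under the same peaks, made up 9 of the 20.

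Genes listed under translation and ribosomal proteins were the largest named block of mRNAs. The translation genes, TPT1 among them, held 55 regions in 10 of 10 genes. The ribosomal protein genes first listed held 47 in 7 of 7. The median over genes of the RBFOX2 mean was −1.97 for translation genes and −1.88 for ribosomal proteins. SLBP at 40 U had −0.29 and −0.42, SLBP at 5 U had −0.64 and −0.89, and IgG had −0.60 and −0.18. RPL18, a protein of the large subunit (chr19:49118637-49121134, minus strand, 7 regions), had −1.43 and −2.31 in RBFOX2, 0.39 and 0.43 in SLBP at 40 U, −0.80 and 0.15 in SLBP at 5 U, and 0.06 in IgG. EEF1A1, the factor that brings aminoacyl-tRNA to the ribosome (chr6:74227919-74230752, minus strand, 9 regions), had −1.26 and −1.64 in RBFOX2, −0.77 and −0.88 in SLBP at 40 U, −0.72 and −0.52 in SLBP at 5 U, and −0.86 in IgG. RBFOX2 lay lowest on both, by less on EEF1A1, where every library was below input. EEF1A1 has close copies in the genome, which makes its values uncertain.

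RPL36 (chr19:5690308-5691595) had −1.17 and −1.35 in RBFOX2, 0.49 and 0.37 in SLBP at 40 U, −0.39 and 0.05 in SLBP at 5 U, and 0.36 in IgG. RPS6 (chr9:19378431-19380231), whose protein is phosphorylated downstream of mTOR, had −0.90 and −1.81 in RBFOX2, −0.24 and −0.27 in SLBP at 40 U, −0.60 and −0.23 in SLBP at 5 U, and 0.23 in IgG. RPL37A (chr2:217363568-217364752) had −0.93 and −1.35 in RBFOX2, −0.16 and 0.22 in SLBP at 40 U, −0.78 and −0.40 in SLBP at 5 U, and −0.17 in IgG. Both RBFOX2 libraries lay below the other 5 on these 3 genes. RACK1, a scaffold on the small subunit, held 11 regions with medians of −1.38 and −2.05 in RBFOX2, −0.01 and 0.02 in SLBP at 40 U, −0.39 and −0.53 in SLBP at 5 U, and 0.01 in IgG. RPL34 and RPS13 differed from this pattern. The median of 4 RPL34 regions was 0.67 and 1.07 in RBFOX2, 0.19 and 0.16 in SLBP at 40 U, −0.90 and −0.94 in SLBP at 5 U, and 0.11 in IgG. The 2 RPS13 regions had 1.07 and 1.64 in RBFOX2, 0.56 and 0.06 in SLBP at 40 U, −0.80 and −0.14 in SLBP at 5 U, and 0.03 in IgG. RBFOX2 was the highest antibody on both.

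A set of mRNA and RNA genes was below input in every library. A total of 117 regions in 78 loci had a log2 fold of −1 or less in all 7, and 36 of them lay in 15 named genes. EIF4A1, an RNA helicase of translation initiation, held 8 of them among its 12 regions, its relative EIF4A2 held 6 of 9, RPS2 held 5 of 9, NCL, which encodes nucleolin, held 3 of 8, and RNU12, a minor-spliceosome RNA, held 3 of 4. EIF4A2 regions had a median of −3.73 and −3.94 in RBFOX2, −1.27 and −1.71 in SLBP at 40 U, −1.91 and −2.79 in SLBP at 5 U, and −2.13 in IgG. RPS2 regions had −3.36 and −3.97 in RBFOX2, −1.31 and −2.03 in SLBP at 40 U, −2.20 and −1.11 in SLBP at 5 U, and −1.63 in IgG. On both genes all 7 medians were below −1 and RBFOX2 was lowest.

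Many such genes carry small nucleolar RNAs in their introns, which guide modification of ribosomal RNA. After the values were seen, the named genes other than the structured RNAs were split by whether the RefSeq gene table on GRCh38.p14 places a small nucleolar RNA gene inside them. In 22 such host genes 29 of 125 regions (23.2%) were at −1 or less in all 7 libraries. These 29 lay in 10 of the 22 genes, with 8 in EIF4A1, 6 in EIF4A2, 5 in RPS2 and 3 in NCL. Adjacent regions often lie under the same peaks, so they are not separate measurements. In 52 genes without a small nucleolar RNA gene, 2 of 298 regions (0.671%) were at −1 or less in all 7 libraries, and they lay in 2 genes. Host regions had medians of −1.68 and −2.53 in RBFOX2, −0.43 and −0.42 in SLBP at 40 U, −0.86 and −0.85 in SLBP at 5 U, and −0.40 in IgG. The other genes had −0.68 and −1.19 in RBFOX2, 0.24 and 0.29 in SLBP at 40 U, −0.04 and 0.20 in SLBP at 5 U, and 0.18 in IgG. The same split within translation and ribosomal genes gave 22 of 91 regions (24.2%) in 15 hosts and 2 of 57 (3.51%) in 9 others. By gene, 6 of these 15 hosts and 2 of the 9 others held such a region. Whether a region lies on the small RNA itself was not tested.

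Inside a host gene the fold went up and down steeply. EIF4A1 (chromosome 17, plus strand) had a region at chr17:7478128-7478154 with −3.82 and −3.73 in RBFOX2, −2.43 and −2.25 in SLBP at 40 U, −2.26 and −2.66 in SLBP at 5 U, and −2.00 in IgG. About 2 kb onward, chr17:7480220-7480247 had −0.82 and −2.07 in RBFOX2, 0.22 and 0.70 in SLBP at 40 U, −0.36 and −0.28 in SLBP at 5 U, and 0.91 in IgG. Another place, chr17:7481357-7481387, was low again with −2.80 and −3.74 in RBFOX2, −1.92 and −2.27 in SLBP at 40 U, −2.12 and −1.99 in SLBP at 5 U, and −1.27 in IgG. The 3 places kept one order in all 7 libraries with respect to which was highest. GAS5, a noncoding host gene with 11 small nucleolar RNA genes in the table (chr1:173833312-173836865, minus strand, 9 regions), had −1.66 and −2.70 in RBFOX2, −1.44 and −0.43 in SLBP at 40 U, −0.24 and −1.98 in SLBP at 5 U, and 0.03 in IgG. SLBP replicates of one RNase amount differed there by over 1 log2 unit, more than on any other of the 12 most covered loci.

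**Figure D4:**
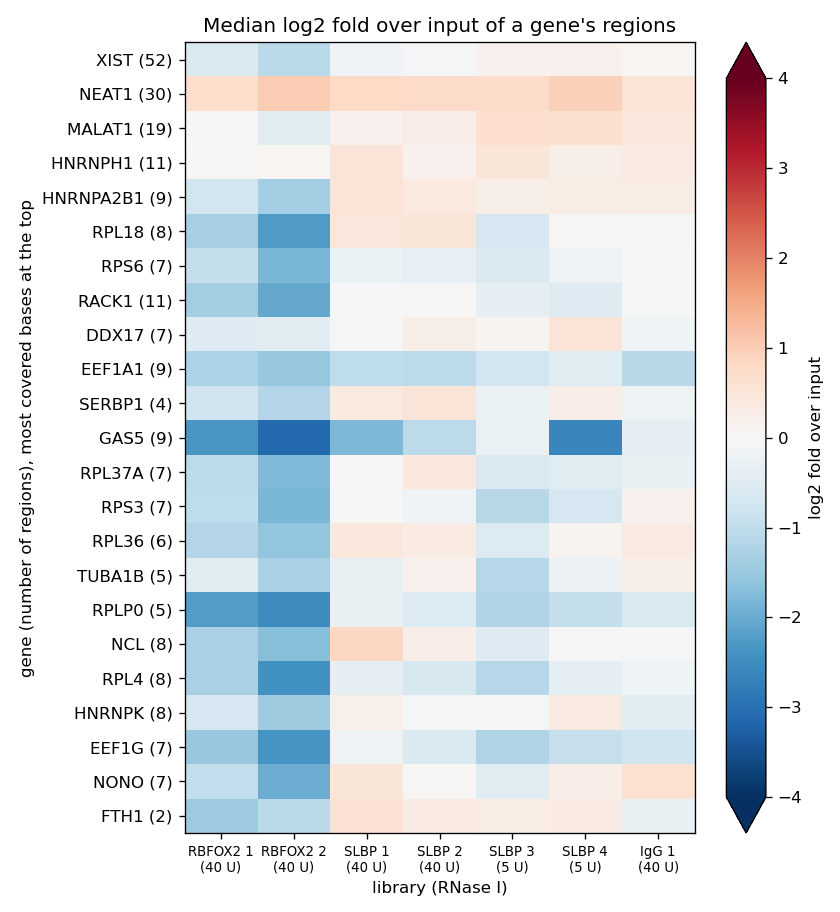
Median log2 fold over input (colour, from −4 to 4) of the regions of 23 of the 25 named genes with the most covered bases, 1 row per gene with its number of regions and 1 column per library, RBFOX2 at the left and IgG at the right. The RBFOX2 columns are below 0 in all rows but NEAT1 and HNRNPH1, NEAT1 is above 0 in all 7 columns, and GAS5 is the row with the widest spread among SLBP libraries.

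Genes for RNA-binding proteins held 76 regions in 14 of 18 listed genes, and they were milder. The median over genes of the RBFOX2 mean was −1.05, against 0.38 for SLBP at 40 U, 0.18 for SLBP at 5 U and 0.12 for IgG. HNRNPH1, which encodes an hnRNP that binds G-runs, had 11 regions with medians near input, at 0.05 and 0.08 in RBFOX2, 0.51 and 0.16 in SLBP at 40 U, 0.48 and 0.23 in SLBP at 5 U, and 0.36 in IgG. DDX17, an RNA helicase, had −0.51 and −0.42 in RBFOX2, −0.04 and 0.22 in SLBP at 40 U, 0.10 and 0.52 in SLBP at 5 U, and −0.18 in IgG. HNRNPK had −0.67 and −1.43 in RBFOX2, 0.20 and −0.04 in SLBP at 40 U, −0.07 and 0.35 in SLBP at 5 U, and −0.46 in IgG. NONO, a paraspeckle protein, had −0.996 and −1.97 in RBFOX2, 0.48 and 0.04 in SLBP at 40 U, −0.49 and 0.28 in SLBP at 5 U, and 0.62 in IgG. RBFOX2 had the lowest medians on all 4 genes, and on HNRNPH1 SLBP replicate 2 lay close above them.

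HNRNPA2B1, an RNA-export and splicing factor, had medians of −0.72 and −1.37 in RBFOX2, 0.53 and 0.41 in SLBP at 40 U, 0.23 and 0.29 in SLBP at 5 U, and 0.31 in IgG over 9 regions. One of them stood out. At chr7:26238486-26238517 (minus strand) the log2 fold was 2.82 and 1.77 in RBFOX2, 0.53 and 0.04 in SLBP at 40 U, 0.24 and 1.41 in SLBP at 5 U, and 1.31 in IgG. Both RBFOX2 values there exceeded the other 5.

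Other mRNAs of high abundance had RBFOX2 group medians between −1.28 and −0.89, with 16 regions for the cytoskeleton (5 of 14 genes), 17 for metabolism (7 of 11), 16 for chaperones (7 of 9) and 15 for chromatin proteins (5 of 9). SLBP at 40 U had group medians between 0.24 and 0.75 in these 4 sets. FTH1, the ferritin heavy chain, held the second widest region, chr11:61734933-61735080 (minus strand, 148 nt), with −1.81 and −1.63 in RBFOX2, 0.72 and 0.89 in SLBP at 40 U, 0.31 and 0.42 in SLBP at 5 U, and −1.004 in IgG. The widest region, chr15:69745162-69745327 (plus strand, 166 nt), lies in no listed window and had −1.89 and −2.60 in RBFOX2, 0.04 and −0.23 in SLBP at 40 U, −0.81 and −0.23 in SLBP at 5 U, and −0.48 in IgG. VIM, the intermediate filament protein vimentin, had −2.24 and −2.98 in RBFOX2, 1.08 and 0.58 in SLBP at 40 U, −0.22 and 0.57 in SLBP at 5 U, and −0.48 in IgG. RBFOX2 was below every other library on all 3.

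Regions enriched in every library of an antibody numbered 10, in 9 loci. Those of both RBFOX2 libraries were 5: 2 in SRSF6, 1 in NEAT1 and 2 in no window that was kept. Windows listed for SNORD3A, SNORD3B-1 and ALDOA had been dropped for their length ratio, so no region could take these names. SRSF6 encodes an SR protein that acts in splicing. Its region chr20:42087205-42087248 (plus strand) had 4.12 and 3.46 in RBFOX2, 1.94 and 2.04 in SLBP at 40 U, 1.88 and 1.32 in SLBP at 5 U, and 2.27 in IgG. The region of 6 nt at chr20:42087394-42087399 had 3.78 and 3.86 in RBFOX2, 0.41 and 0.41 in SLBP at 40 U, −0.19 and 0.77 in SLBP at 5 U, and 1.01 in IgG. RBFOX2 was above the other antibodies on both, and the first was above input in every library. On NEAT1, chr11:65190395-65190469 had 2.90 and 2.79 in RBFOX2, 2.12 and 2.20 in SLBP at 40 U, 1.68 and 1.90 in SLBP at 5 U, and 1.67 in IgG.

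The 2 unnamed regions were high with all antibodies. At chr17:18965409-18965429 (plus strand) the log2 fold was 6.31 and 3.52 in RBFOX2, 8.24 and 7.35 in SLBP at 40 U, 6.12 and 3.58 in SLBP at 5 U, and 8.29 in IgG. At chr6:31958261-31958279 (plus strand) it was 3.87 and 4.76 in RBFOX2, 5.37 and 6.71 in SLBP at 40 U, 4.57 and 4.51 in SLBP at 5 U, and 4.77 in IgG. IgG was the highest library at the first and was above both RBFOX2 libraries at the second. Of 1434 regions, 9 in 7 loci had a log2 fold of at least 1 in all 7 libraries, among them these 2, the first SRSF6 region and 3 NEAT1 regions.

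All 4 SLBP libraries were enriched at 2 regions, the chromosome 6 one and H2AFX. H2AFX encodes the histone variant H2A.X, and its mRNA can end in the stem-loop that SLBP binds. At chr11:118965990-118966001 (minus strand, 12 nt) the log2 fold was −0.59 and −0.40 in RBFOX2, 5.67 and 6.62 in SLBP at 40 U, 3.997 and 5.81 in SLBP at 5 U, and 1.504 in IgG. The 4 SLBP values did not overlap with the rest. The region lay at a fraction of 0.114 of the recalled gene span from its 5′ end. Whether it covers the stem-loop was not tested. IgG was enriched at 6 regions. They included chr19:22877663-22877666 (minus strand, 4 nt), with 2.70 and 2.23 in RBFOX2, 0.90 and 1.63 in SLBP at 40 U, −0.60 and −0.16 in SLBP at 5 U, and 4.94 in IgG. Another was chr3:12196532-12196568 (minus strand), with 0.59 and 0.38 in RBFOX2, 0.10 and 1.54 in SLBP at 40 U, −0.20 and −1.51 in SLBP at 5 U, and 4.12 in IgG. At chr6:126301040-126301078 (minus strand) IgG had 3.97, while RBFOX2 had 0.08 and −0.75, SLBP at 40 U −0.02 and 2.12, and SLBP at 5 U 0.42 and 0.08. The IgG value was the highest at all 3, and it comes from 1 library.

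RBFOX2 was compared with SLBP at the same RNase amount region by region. The test was limma's moderated test on the deposited log2 folds of all 1522 shared stretches, with 4 groups in one fit and Benjamini-Hochberg adjustment. RBFOX2 was lower at 856 of the 1434 regions and higher at 12 (adjusted p under 0.05), where 59.5% and 0.788% of all tested stretches were called. The median difference was −1.54, a shift shared by most regions, and folds of different lists rest on different inputs. Without RBFOX2 replicate 2, the library with the lowest median, 135 regions were lower and 2 higher, and without SLBP replicate 1, 517 were lower and 2 higher. With each library centred on its own median, RBFOX2 was higher at 63 regions and lower at 49, where 4.14% and 4.93% of all tested stretches were called. The 1434 regions make up most of the 1522 stretches, so the shares of all tested stretches are no independent background. All 12 regions called higher as deposited were among the 63, and the 49 were all among the 856. The centred counts fell to 6 higher and 11 lower without RBFOX2 replicate 2, to 31 and 6 without RBFOX2 replicate 1 and to 22 and 17 without SLBP replicate 1. Centred calls that held with each of the 7 libraries left out numbered 6 higher and 4 lower.

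**Figure D5:**
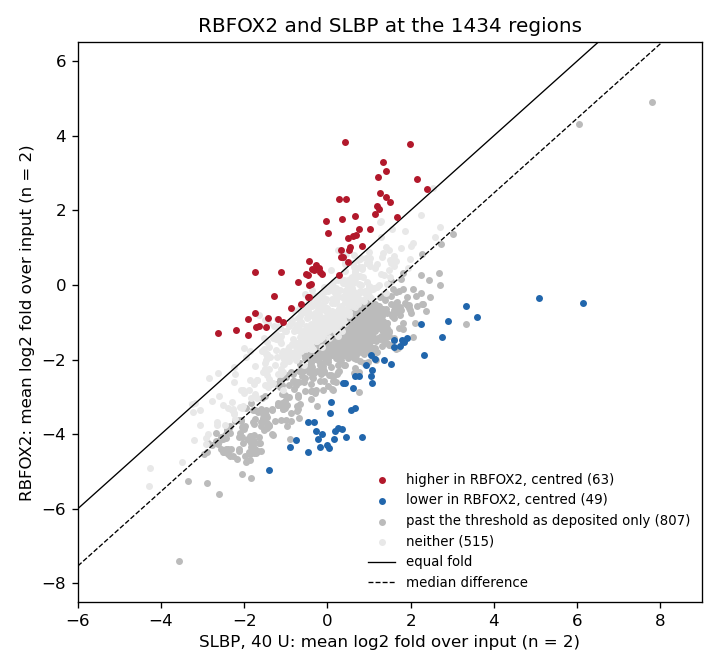
RBFOX2 mean log2 fold over input (vertical axis, n = 2) against the SLBP mean at 40 U (horizontal axis, n = 2) for each of the 1434 regions; the solid line marks equal folds and the dashed line the median difference of −1.54. Red and blue points are the 63 and 49 regions that were higher and lower in RBFOX2 after centring, mid-grey points passed only as deposited, and most points follow the dashed line.

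Both SRSF6 regions, HNRNPA2B1, a region of RPL34, a region of SNRNP70 and 1 unnamed region made up the 6 that were higher in RBFOX2 after centring whichever library was left out. As deposited, only the SRSF6 region of 6 nt kept its call with each of the 7 libraries left out. HNRNPA2B1 kept it in 6 of the 7, the RPL34 and the unnamed region in 5, and SNRNP70 and the other SRSF6 region in 4. The difference as deposited was 3.41 (SE 0.54, adjusted p = 0.000142 with limma) at SRSF6 chr20:42087394-42087399. It was 2.01 (SE 0.58, adjusted p = 0.00842) at HNRNPA2B1. RPL34, a protein of the large ribosomal subunit, had 1.59 and 1.86 in RBFOX2 at chr4:109543331-109543357 (plus strand), −0.14 and 0.08 in SLBP at 40 U, −1.55 and −1.23 in SLBP at 5 U, and −0.23 in IgG, a difference of 1.76 (SE 0.52, adjusted p = 0.00935). SNRNP70, which encodes a protein of the U1 particle, had 3.14 and 2.65 in RBFOX2 at chr19:49605997-49606033 (plus strand), 1.14 and 1.28 in SLBP at 40 U, 0.48 and 1.22 in SLBP at 5 U, and 1.46 in IgG, a difference of 1.69. The unnamed region chr1:76252801-76252817 (plus strand) had 0.30 and 0.40 in RBFOX2, −2.10 and −1.39 in SLBP at 40 U, −1.07 and −2.02 in SLBP at 5 U, and −1.39 in IgG, a difference of 2.09 (adjusted p = 0.00521). There the RBFOX2 libraries alone were above input. The NEAT1 region chr11:65191021-65191069 (difference 1.97) and the high MALAT1 region (1.86) followed, and each lost its centred call without 1 of the libraries.

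Of the 63 centred higher calls, 45 lay in named genes. NEAT1 held 15, XIST 7, MALAT1 5, and HNRNPH1, RPL34, RPS13, SNRNP70 and SRSF6 held 2 each. For the gene groups first listed, long noncoding RNAs had 20 of 66 regions higher and 0 lower after centring. RNA-binding proteins had 5 of 76 and 0, translation genes 1 of 55 and 1, and ribosomal proteins 0 of 47 and 0. Structured RNAs had 0 of 22 higher and 13 lower. Of all 1434 regions 63 were higher and 49 lower. The 20 noncoding calls lay in NEAT1 (15) and MALAT1 (5), and none in GAS5, SNHG1 or MIR17HG. The 13 structured calls lay in RPPH1 (9), RMRP (2) and RNU11 (2). Ribosomal protein genes listed later, outside the 47 regions, did hold higher calls: RPL34 (2), RPS13 (2) and RPL37A (1). The median centred difference over all regions was −0.05. It was 1.16 for long noncoding RNAs, 0.30 for RNA-binding proteins, −0.11 for translation genes, −0.24 for ribosomal proteins and −1.93 for structured RNAs. Of the 7 XIST regions, 5 were above input in both RBFOX2 libraries and 2 were below it in both.

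The regions lowest in RBFOX2 against SLBP were led by H2AFX, with a difference of −6.64 (SE 0.61, adjusted p = 1.65e-07 with limma). Next came chr6:10887837-10887855 (plus strand), at 0.33 and −1.02 in RBFOX2, 4.30 and 5.89 in SLBP at 40 U, 2.50 and 0.19 in SLBP at 5 U, and 0.31 in IgG, a difference of −5.44 (SE 0.72, adjusted p = 2.31e-05). At chr7:140086591-140086616 (minus strand) the values were −3.59 and −4.54 in RBFOX2, 0.29 and 1.36 in SLBP at 40 U, −1.12 and 0.02 in SLBP at 5 U, and −2.88 in IgG, a difference of −4.90. The RPPH1 region chr14:20811530-20811569 had a difference of −4.54 (SE 0.55, adjusted p = 6.81e-06). NEDD8, a ubiquitin-like modifier, had −0.74 and −0.97 in RBFOX2 at chr14:24701516-24701534 (minus strand), 4.41 and 2.78 in SLBP at 40 U, 0.01 and 1.10 in SLBP at 5 U, and 0.80 in IgG, a difference of −4.45. At chrX:68892381-68892416 (plus strand) the values were −4.14 and −4.62 in RBFOX2, −0.01 and 0.10 in SLBP at 40 U, −2.71 and −2.16 in SLBP at 5 U, and 0.20 in IgG, a difference of −4.43. H2AFX, RPPH1, the chromosome 7 region and the X region were the 4 that held after centring whichever library was left out. All 9 RPPH1 regions, both of RNU11, both of RMRP and both of VIM were lower after centring in the full set of libraries.

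Against the single IgG library, RBFOX2 was lower at 408 regions and higher at 4, where 27.7% and 0.263% of tested stretches were called. After centring 2 were higher and 1 lower, and without RBFOX2 replicate 2, 0 passed in either direction in limma, with 321 at an unadjusted p under 0.05. The 4 higher regions were SRSF6 chr20:42087394-42087399, NEAT1 chr11:65191021-65191069 and 2 regions of RPL34. They share their RBFOX2 libraries with the comparison against SLBP. The IgG library was taken to vary like the replicated ones.

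SLBP at 40 U differed from IgG at 11 regions. It was higher at 9 and lower at 2, where 2.3% and 0.131% of tested stretches were called. H2AFX was higher by 4.64 (adjusted p = 0.000458 with limma) and chr6:10887837-10887855 by 4.78 (adjusted p = 0.00202). Both RNU11 regions were higher by 2.72 and 2.63, with −2.05 in IgG. MIR17HG, the host of a microRNA cluster, had 2.73 and 2.42 in SLBP at 40 U and −0.27 in IgG at chr13:92000466-92000475, with 1.28 and 1.27 in RBFOX2. The RN7SL1 region was higher by 3.14 while below input in both. The 2 lower regions were those on chromosomes 19 and 3 where IgG was enriched. Without either RBFOX2 library, 3 regions were higher and 1 lower. Without SLBP replicate 1 these were 6 and 2, without SLBP replicate 2 12 and 12, and without SLBP replicate 3 or 4 12 and 6.

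SLBP at 5 U was lower than SLBP at 40 U at 5 regions (0.329% of tested stretches) and higher at 0, with 157 regions at an unadjusted p under 0.05 in limma. At chr15:45492610-45492646 (minus strand) the log2 fold was −2.45 and −2.25 in SLBP at 5 U and 2.26 and 1.99 in SLBP at 40 U, a difference of −4.47 (SE 0.52, adjusted p = 9.32e-05). IgG had 2.19 there, and RBFOX2 had −0.39 and −0.23, both with 40 U. At chr19:893535-893565 (plus strand) SLBP at 5 U had 0.04 and −0.89, SLBP at 40 U had 2.97 and 2.46, RBFOX2 had 2.20 and 0.93, and IgG had 3.01. The 5 U libraries were the lowest at both. The other 3 were the chromosome 6 region at 10887837, NEDD8 and the X region at 68892381, and after centring only 1 of the 5 passed. Lower regions numbered 21 without SLBP replicate 4, 9 without SLBP replicate 1, 8 without SLBP replicate 2 and 1 without either RBFOX2 library. Without SLBP replicate 3, 3 regions were higher and 6 lower.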

How the data were processed

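Peak lists of 2 RBFOX2, 4 SLBP and 1 IgG eCLIP libraries of 293T cells were analysed; the 10 samples of an RNase I series and the input samples were not used here except through the authors' folds. Every peak in a deposited list has an interval and a strand, with 2 scores from the authors: the −log10 of a p-value, and the log2 fold of the precipitate over its paired input. The lists have no header, so both units were read from the values. The deposited −log10 p is 0 wherever the log2 fold is below 0. Per the submitters' processing notes, reads were placed on hg19; the tools named there are SAMtools, Picard, GATK, STAR and cutadapt. A peak caller is named neither there nor in the labels. No read counts are given, so depth is unknown.

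Overlaps were computed in Python 3.11.15 with numpy 2.4.6 and pandas 2.3.3 from base-level coverage per strand, checked on simulated data. A region's value in a library is the mean log2 fold over its bases. Positions count from 1. Differences were tested with limma 3.58.1 in R 4.3.3 (group means, eBayes, threshold 0.05), also tested on simulated data; library medians were tested by exact permutation. Alternatives were centring, the highest peak, a minimum width, 1 value per locus, a trend, pooled SLBP, a replicate block and leaving out libraries. Regions named were the 12 most covered loci, the 6 highest and 6 lowest differences, the 10 regions enriched in all libraries of an antibody (the second SRSF6 one shares its locus), the 3 widest, and genes by covered bases, the first 25 with values; structured RNAs, snoRNA hosts, the remaining higher or lower calls and 14 gene windows beyond the 98 first listed (XIST, RPL18 and others) were added after values were seen. Gene windows were kept at a length ratio of 0.25 to 1.25 to the table, a tolerance set after the ratios were seen. Results for 2 genes are not reported here. Members and lists were chosen with earlier results of these data known.

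Replicate numbers were checked for pairing between RBFOX2 and SLBP at 40 U: the correlation of replicate 1 minus 2 over the regions was −0.0586, and the labels give no shared batch, so the numbers were not taken as pairs.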

Additional observations from a re-analysis of the deposited data

How the results depend on the processing

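Of 78 alternatives other than leaving out a library, 54 gave a value near the reported one and 24 moved it. A reversal of direction could be scored only for medians of log2 fold, where 0 were found. Counts and shares were scored only as near or moved. Requiring 20 nt left 902 regions, and using only peaks with a log2 fold above 0 left 61. The SLBP median at 40 U was 0.34 with 1 value per locus. At a log2 fold of at least 2 the enriched share was 1.499% for RBFOX2, 1.46% for SLBP at 40 U and 1.26% for IgG. At a log2 fold of at least 4 with a −log10 p of at least 10 it was 0.0697% for RBFOX2, 0.139% for SLBP at 5 U and 0.209% for IgG. Centring gave 63 higher and 49 lower for RBFOX2 against SLBP at 40 U, from 12 and 856 as deposited. For RBFOX2 against IgG it gave 2 and 1, from 4 and 408. In both comparisons lower calls outnumbered higher ones as deposited and not after centring. Centring gave 1 lower for SLBP at 5 U against 40 U. With 1 value per locus, fewer units tested, the same comparisons in that order gave 3 and 538 (centred 27 and 20), 0 and 122, and 2 lower. SLBP at 40 U was lower than IgG at 4 regions by the highest peak, 1 with a 10 nt minimum and 5 with a trend. The cause of these moves was not tested.

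Leaving out 1 library in turn gave 1464 to 1751 regions. For RBFOX2 against SLBP at 40 U it gave 2 to 13 higher and 135 to 902 lower, and 6 to 63 higher and 6 to 51 lower after centring. Against IgG, RBFOX2 was higher at 0 to 6 and lower at 0 to 518 regions. SLBP at 40 U was higher than IgG at 3 to 12 and lower at 1 to 12, the 12 lower without SLBP replicate 2. SLBP at 5 U was higher than at 40 U at 0 to 3 and lower at 1 to 21. With 1 library left in a group, it was assumed to vary like the others. The replicate block gave 13 higher and 919 lower for RBFOX2 against SLBP at 40 U, against 13 and 902 with the same libraries and no block. Adjacent regions under one peak are not independent, and no read depth is known for any fold.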
